A study of Mus musculus with 10 samples.

Results

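The copines are a family of calcium-dependent, phospholipid-binding proteins, and the 7 members described here are the genes Cpne2, Cpne4, Cpne5, Cpne6, Cpne7, Cpne8 and Cpne9, out of 23589 genes in the deposited table of unique molecular identifiers (UMIs). They were chosen by symbol, with their levels in these libraries already known, so their levels by region and neuron type are given as a description. Neuron types were not tested against each other. Fold changes, p-values and calls of the members between regions are part of that description and are no support for a difference. The other family members in the table, Cpne1 and Cpne3, are given beside them. The data came from DroNc-seq, in which single nuclei are captured in droplets and the RNA of each nucleus is tagged with its own barcode. Hippocampus and prefrontal cortex, the labels' cortex group, were dissected from C57BL/6 mice and kept frozen until nuclei were isolated. No treatment, genotype or age separates the groups in the labels, so region is the comparison that the design makes. Each region had 5 libraries. Libraries of 1 region with the same number in their titles were added together, leaving 4 units a region, named unit 0 to unit 3 after that number. The series design names 4 mice, and the labels do not tie a number to a mouse, so the spread between units may be partly technical.

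Copines carry a pair of C2 domains, the module by which many synaptic proteins bind membranes when calcium rises, followed by a von Willebrand factor A-like domain that binds other proteins. Copine-6, also called neuronal copine, is known from the hippocampus, where it moves to the membrane of dendritic spines on calcium entry and acts in the Rac and TrkB signalling that shapes spines. Copine-3 is widely expressed and binds the receptor ErbB2, while less is known of most other members in neurons. The genes lie apart in the genome. In the GENCODE annotation of mouse build GRCm38, Cpne6 spans chr14:55510445-55517431 on the plus strand, Cpne4 chr9:104547286-105034544 on the plus strand and Cpne5 chr17:29155556-29238167 on the minus strand. Cpne7 spans chr8:123117374-123135182 and Cpne2 chr8:94532990-94570531, both on the plus strand of the same chromosome, while Cpne9 spans chr6:113282307-113305627 on the plus strand and Cpne8 chr15:90487482-90679432 on the minus strand. Their spans run between 7.0 kb for Cpne6 and 487.3 kb for Cpne4. Levels are in CPM, the UMIs of a gene scaled to the total UMIs of the nuclei summed, with no correction for length, so levels are compared within a gene and not between genes.

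In all, 11624 nuclei were read from the 10 libraries (5658 hippocampal, 5966 cortical), with 1443244 to 2600788 UMIs per library and a median of 643.5 to 2732 UMIs per nucleus. Any 2 of these libraries shared at most 3 barcodes. The table also holds 1689 columns with the prefix mHP3, which matches no labelled sample, and they were not used. Of the 1167 barcodes of library HP3, which is hippocampal unit 3, 1165 occur among those columns as well, so the mHP3 columns and that unit may hold the same nuclei. Nuclei were clustered without the 9 copine genes, and clusters were named from marker genes. This gave 5990 excitatory and 864 inhibitory neuron-like nuclei and 9 named neuron types. Clusters without a class name held 1717 hippocampal and 891 cortical nuclei. They made up 42.84% of hippocampal unit 0 and 21.04 to 21.47% of hippocampal units 1 to 3. Part of the excitatory and inhibitory neuron-like nuclei also got no type, so levels by type rest on part of the nuclei. Marker levels matched the names of the types to different degrees. All 12 granule markers and all 8 Pvalb markers were highest in the type they name. So were 9 of 11 CA3, 8 of 10 layer 2-4, 9 of 10 layer 6 and 8 of 10 Adarb2 and Vip markers. For layer 5 it was 6 of 10 markers and for Sst 6 of 8. Only 5 of 10 CA1 markers were highest in CA1-like nuclei, and their summed level was 4586.4 CPM there and 4706.5 CPM in CA3-like nuclei. The CA1 marker Fibcd1 stood at 113.9 CPM in CA1-like nuclei and at no more than 10.1 CPM in any other type. Unit 0 of the hippocampus stood apart from the other hippocampal units. It held 126 layer 2-4-like nuclei, against 2, 0 and 2 in units 1 to 3, and 136 of the 181 nuclei of an unnamed cluster led by Prkcd. Fold changes of Cpne5, Cpne7 and Cpne9 between the regions are therefore also given without it.

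All 7 members were detected, at depths that differed widely. Cpne6 gave 7468 UMIs in 3727 nuclei, which was 32.06% of all nuclei. Cpne9 gave 3169 UMIs, Cpne7 2892, Cpne5 1364, Cpne4 956, Cpne8 732 and Cpne2 320. Of the other family members, Cpne3 gave 1397 UMIs and Cpne1 gave 1 UMI in all. Cpne1 shares 20008 bases with Rbm12 on the same strand, which had 229 UMIs. It also shares 40121 of its 40124 bases with the annotated gene Gm28036 on that strand. Cpne7 lies wholly within the annotated gene Gm20388 on the same strand. Reads in such overlaps can be split or dropped by a counting program, and the sources used here do not say how they were counted, so the Cpne1 and Cpne7 totals are uncertain.

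Summed over all nuclei, Cpne6, Cpne7 and Cpne2 were higher in hippocampus than in cortex and Cpne5 was lower. Cpne6 stood at 490.1, 568.1, 628.4 and 577.3 CPM in hippocampal units 0 to 3, against 216.9, 245.8, 244.5 and 257.9 CPM in cortical units 0 to 3. Cpne7 stood at 244.6, 180.8, 216.2 and 247.4 CPM in hippocampal units, against 81.9, 71.13, 78.02 and 80.97 CPM in cortical units. Every hippocampal unit lay above every cortical unit for both genes, by a factor of 2.346 in the mean for Cpne6 and 2.849 for Cpne7. Cpne2 stood at 25.56, 16.95, 14.55 and 26.75 CPM in hippocampal units, against 9.982, 12.63, 8.389 and 13.36 CPM in cortical units. These groups did not overlap either, though the lowest hippocampal unit lay close to the highest cortical unit. Without hippocampal unit 3 the adjusted p of Cpne2 was 0.0508 in edgeR's quasi-likelihood test, beside 0.0127 with all units. Cpne5 went the other way, at 44.6, 17.58, 22.17 and 23.4 CPM in hippocampal units, against 100.7, 91.76, 89.76 and 89.73 CPM in cortical units. Its hippocampal mean was 26.94 ± 12.04 CPM and its cortical mean 93.0 ± 5.23 CPM (SD, n = 4 units each), and the groups did not overlap.

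**Figure D1:**
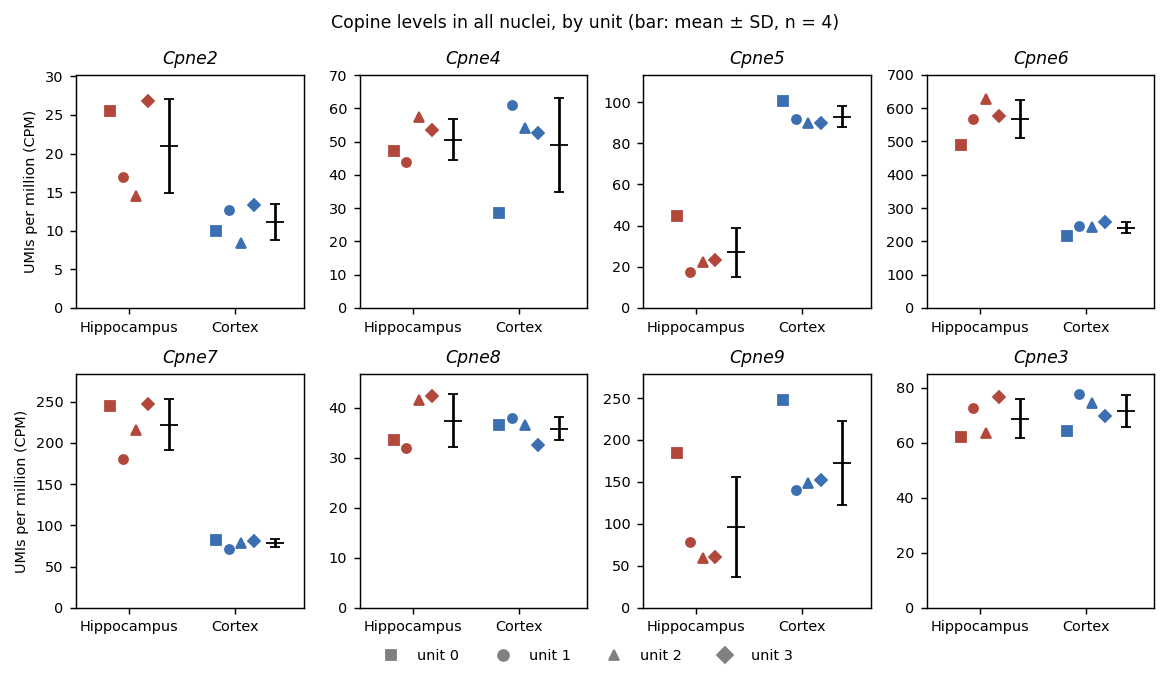
Levels of the 7 members and Cpne3 over all nuclei, in CPM, with hippocampal units at the left and cortical units at the right of each panel; each marker shape is a unit and the bar is the mean ± SD. Cpne6 and Cpne7 sit higher in all 4 hippocampal units, Cpne5 sits lower, and unit 0 is the highest for Cpne9 in both regions.

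The remaining members overlapped between the regions in these sums. Cpne9 stood at 184.1, 78.47, 59.59 and 60.74 CPM in hippocampal units, against 247.1, 140.6, 148.5 and 152.8 CPM in cortical units. Unit 0 was the highest in both regions for Cpne9, and the hippocampal unit 0 reached the cortical range. Without it the log2 fold change of Cpne9 was -1.38 ± 0.201, beside -0.82 ± 0.308 with all units (SE). Cpne4 had means of 50.5 ± 6.11 CPM over hippocampal units and 49.1 ± 14.1 CPM over cortical units, and Cpne8 of 37.4 ± 5.33 CPM over hippocampal units and 35.9 ± 2.30 CPM over cortical units (SD, n = 4 units each). In the fit across all 12855 genes tested, all 7 members passed the filter on low counts and 4 were called at an adjusted p under 0.05, beside 17.7% of all genes called. Of these, 3 were higher in hippocampus (9.19% of all genes) and 1 was lower (8.53%). The units lay wholly above the cortical ones for 3 members (10.8% of all genes) and wholly below them for 1 (10.7%). These counts were used in choosing the members, so nothing is read from them. In sums over all nuclei, fewer nuclei of a type and less RNA per nucleus cannot be told apart. The unnamed cluster led by Prkcd, with 989 CPM of Cpne7, lay mostly in hippocampal unit 0. Without that unit the log2 fold change of Cpne7 over all nuclei was 1.46 ± 0.119, beside 1.499 ± 0.114 with all units (SE).

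Within excitatory neuron-like nuclei the regional differences of Cpne6 and Cpne7 were larger. Cpne6 stood at 834.1, 883.5, 969.2 and 867.1 CPM in hippocampal units, against 244.0, 265.7, 259.4 and 279.6 CPM in cortical units. Cpne7 stood at 160.9, 247.7, 309.9 and 320.7 CPM in hippocampal units, against 51.33, 58.08, 59.3 and 80.85 CPM in cortical units. Both genes were apart between the regions, with a fitted log2 fold change, hippocampus minus cortex, of 1.79 ± 0.0956 for Cpne6 and 2.09 ± 0.215 for Cpne7 (SE). Cpne5 stood at 56.48, 13.11, 20.48 and 17.88 CPM in hippocampal units, against 124.0, 97.28, 100.7 and 99.39 CPM in cortical units, and its log2 fold change was -1.81 ± 0.303 (SE). Its highest hippocampal unit was unit 0, the unit that held 126 of the hippocampal layer 2-4-like nuclei, in which Cpne5 stood at 106.5 CPM. Without that unit the log2 fold change of Cpne5 was -2.58. Cpne9 stood at 231.8, 72.09, 60.06 and 42.46 CPM in hippocampal units, against 316.3, 155.4, 168.6 and 181.0 CPM in cortical units. Here too the hippocampal unit 0 alone reached the cortical range, and Cpne9 stood at 465.2 CPM in the layer 2-4-like nuclei of that unit. The log2 fold change of Cpne9 was -0.93 ± 0.393 with all units and -1.81 ± 0.259 without the hippocampal unit 0 (SE). The part of the layer 2-4-like nuclei in the values of hippocampal unit 0 was not tested. Of the 7 members, 6 passed the filter in this class and 3 were called, beside 16.3% of 10816 genes. They were 2 higher in hippocampus (8.8% of genes) and 1 lower (7.51%), and the same 3 had units wholly above (10.3%) or wholly below (9.85%) those of cortex. Cpne2 did not pass the filter. The hippocampal class was largely granule, CA1 and CA3-like nuclei and the cortical class layer-like nuclei, so region and neuron type cannot be told apart in it.

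In inhibitory neuron-like nuclei, which both regions share, Cpne6 lay the other way from the excitatory class. It stood at 258.6, 139.2, 212.0 and 251.7 CPM in hippocampal units, against 277.6, 328.2, 267.0 and 367.4 CPM in cortical units, so every hippocampal unit was below every cortical unit. Cpne5 stood at 49.53, 13.92, 31.8 and 27.97 CPM in hippocampal units, against 83.71, 121.1, 64.95 and 79.02 CPM in cortical units, again with no overlap. Cpne7 had a mean of 166 ± 30.1 CPM over hippocampal units and 158 ± 59.7 CPM over cortical units (SD, n = 4 each), and these overlapped. Of the 4 members that passed the filter in this class, 0 were called by edgeR (quasi-likelihood, adjusted by Benjamini-Hochberg) or by DESeq2, beside 0.32% of 5317 genes (0.094% higher and 0.226% lower), and 1, Cpne5, had an unadjusted p under 0.05 in edgeR. Units were wholly above cortex for none of the 4 members (2.65% of genes) and wholly below for 2 (3.27%). Excitatory markers were also detected in this class. The summed level of the 10 excitatory markers was 1072.3 to 2250.8 CPM in hippocampal units and 2168.1 to 2390.3 CPM in cortical units, and that of Slc17a7, the vesicular glutamate transporter that defines cortical excitatory neurons, was 13.9 to 203.6 CPM in hippocampal units and 109.4 to 145.4 CPM in cortical units. The ranges overlapped through hippocampal unit 0, the highest hippocampal unit for both measures, and the part of such RNA in the copine values was not tested.

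An unnamed cluster of the inhibitory class was led by Itpka and then by Cpne9. It held 193 nuclei, 173 of them cortical, and 107 of its nuclei were called doublets. Without it, the mean of Cpne6 was 187.5 ± 57.1 CPM over hippocampal units and 301.6 ± 23.7 CPM over cortical units, and that of Cpne5 was 24.4 ± 7.2 CPM over hippocampal units and 72.4 ± 18.2 CPM over cortical units (SD, n = 4 units each). For both genes the hippocampal units stayed below all cortical units. With the cluster, the mean of Cpne9 was 46.3 ± 44.3 CPM over hippocampal units and 94.9 ± 22.4 CPM over cortical units. Without it, the mean was 33.6 ± 24.4 CPM over hippocampal units and 28.1 ± 24.5 CPM over cortical units, and the higher cortical mean was no longer seen. The cluster was mostly cortical and Cpne9 was among its leading genes, so a lower cortical mean without it was largely fixed beforehand. Nothing is read from that change.

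**Figure D2:**
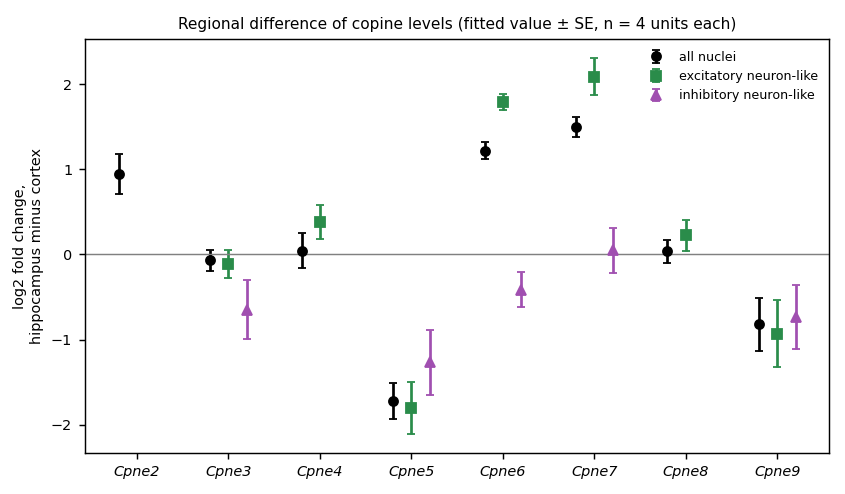
Fitted log2 fold change, hippocampus minus cortex, of each copine gene that passed the filter in all nuclei, excitatory and inhibitory neuron-like nuclei; points are fitted values and bars are ± SE. Cpne6 and Cpne7 lie above 0 in all nuclei and in the excitatory class, Cpne5 lies below 0 in all populations, and Cpne6 lies below 0 in the inhibitory class.

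By neuron type, Cpne6 was the member spread most evenly over the hippocampal principal cells. It stood at 1427, 901.1, 910.5 and 832.7 CPM in dentate granule-like nuclei of units 0 to 3, at 1441, 851.6, 1134 and 1103 CPM in CA1-like nuclei and at 2256, 1262, 1238 and 1145 CPM in CA3-like nuclei. The order of means was CA3, CA1 and granule, and each of these neighbours overlapped the next. Unit 0 was the highest in all 3 types. Without it CA3 still had the highest mean, at 1215 CPM. Among the cortical layer types, layer 2-4-like nuclei of the cortex were the highest, at 302.8, 329.1, 341.5 and 374.0 CPM, wholly below the granule range. The few layer 5-like nuclei of the hippocampal libraries, 26 to 41 a unit, are not in these orders of types, which take each excitatory type in its own region, and they stood at 285.9, 387.2, 553.3 and 258.1 CPM, also below the granule range. Layer 5-like nuclei of the cortex averaged 233 ± 38.2 CPM and layer 6-like nuclei 77.2 ± 27.7 CPM (SD, n = 4 cortical units), with no overlap between them. The lowest group in the order was Sst interneuron-like nuclei of the hippocampus, at 110.5, 33.28, 97.38 and 58.07 CPM, against 160.8, 444.1, 312.6 and 384.8 CPM in Sst interneuron-like nuclei of the cortex. Somatostatin marks a class of dendrite-targeting interneurons, and its hippocampal nuclei lay below the cortical ones in every unit, with 22 to 28 nuclei per hippocampal unit and 32 to 40 per cortical unit.

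After every nucleus was thinned to 500 UMIs, 48.6% of CA3-like, 37.2% of CA1-like and 37.0% of granule-like nuclei had a Cpne6 UMI (95% Wilson interval 34.2 to 39.9% for granule). The unthinned shares were 86.5% of CA3-like, 79.5% of CA1-like and 60.5% of granule-like nuclei, at medians of 2798, 1836 and 1080 UMIs. Endothelial-like nuclei, a type that should lack neuronal transcripts, gave 2.17% in hippocampus at a median of 1652 UMIs and 3.14% in cortex at a median of 2495 UMIs. Shares near that level were read as background. Not all non-neuronal nuclei were so low. Microglia-like nuclei stood at 452 CPM of Cpne6 in hippocampus (95% Poisson interval 356 to 565) and 244 CPM in cortex (205 to 290), against 92.0 and 85.4 CPM in endothelial-like nuclei of the same regions. Intervals here and below cover counting error only.

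**Figure D3:**
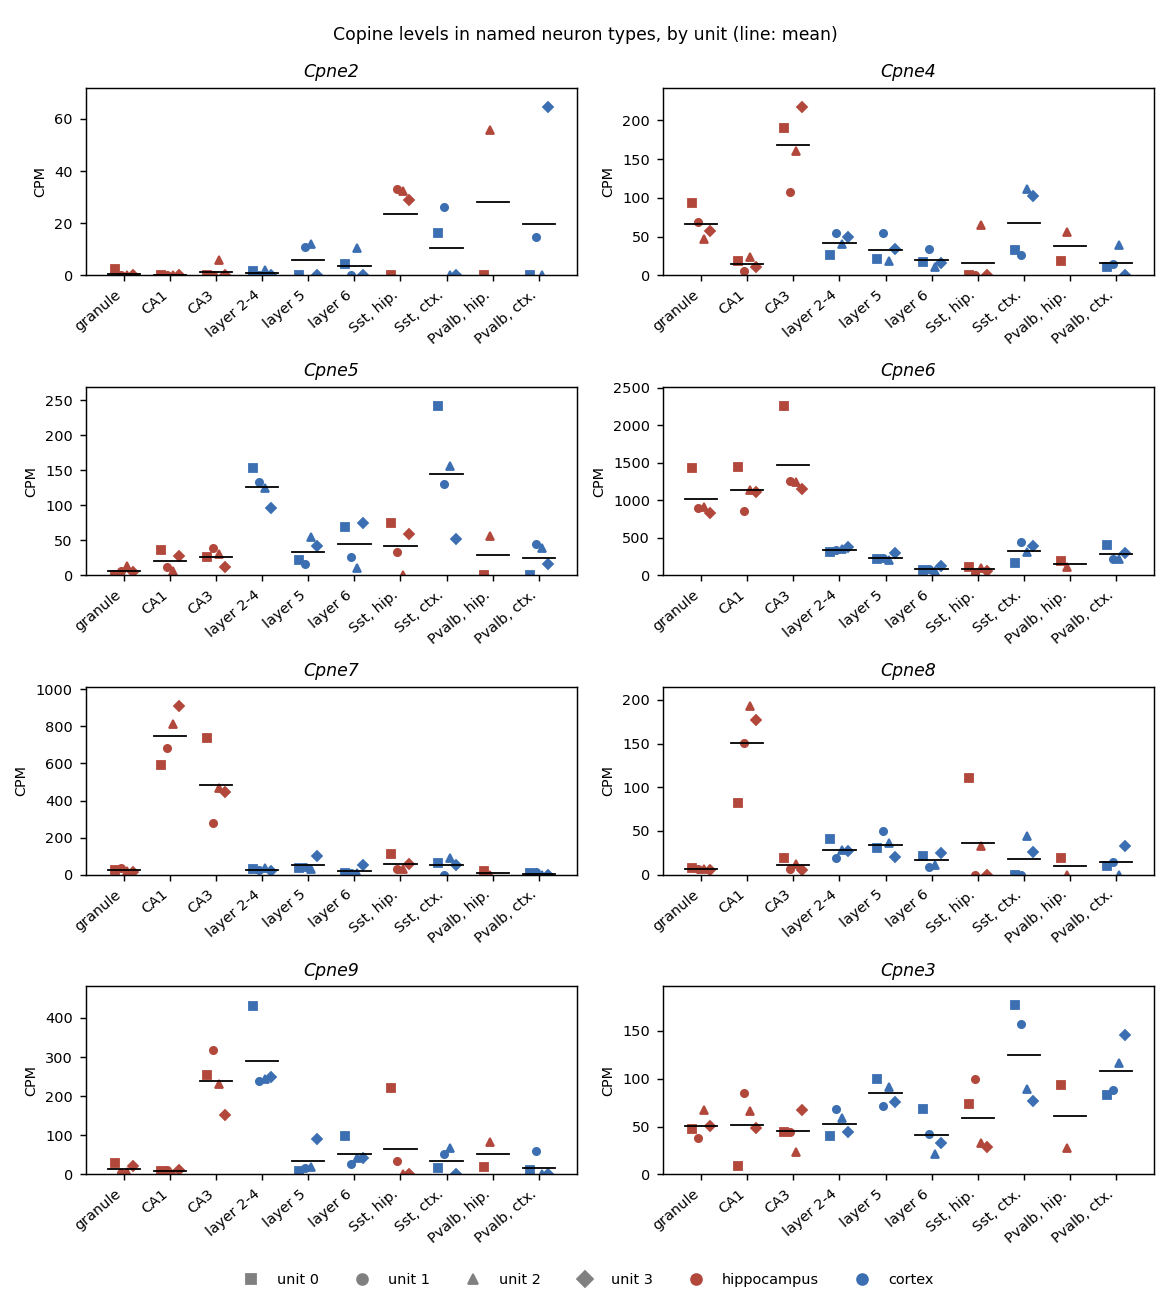
Levels of the 7 members and Cpne3 by named neuron type, in CPM, with each marker shape a unit of at least 20 nuclei and the line the mean; red is hippocampus and blue is cortex. Cpne7 is high in CA1 and CA3, Cpne8 in CA1, Cpne4 in CA3, Cpne9 in CA3 and layer 2-4, and Cpne5 in layer 2-4 and cortical Sst nuclei.

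Cpne7 was high in pyramidal nuclei of the hippocampus and low in its granule nuclei. It stood at 589.3, 682.5, 814.1 and 910.6 CPM in CA1-like nuclei and at 735.0, 279.0, 468.0 and 447.0 CPM in CA3-like nuclei. These ranges overlapped, and both lay above those of the 8 other groups in the order, which are granule-like nuclei of the hippocampus, the layer types of the cortex, and Sst and Pvalb nuclei of both regions. Layer 5-like nuclei of the hippocampal libraries stood at 11.0, 123.9, 138.3 and 176.6 CPM, also below both. Granule-like nuclei stood at 27.74, 34.42, 20.23 and 15.05 CPM. The CA1 mean was 27.0 times the median of the other groups, the largest such ratio among the members, which ranged from 5.2 for Cpne4, Cpne5 and Cpne6 upward. After thinning, 27.4% of CA1-like and 19.1% of CA3-like nuclei had a Cpne7 UMI, against 2.72% of hippocampal endothelial-like nuclei. The highest non-neuronal share in hippocampus was 7.69%, in 26 choroid plexus-like nuclei.

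Cpne8 and Cpne9 divided the pyramidal nuclei of the hippocampus in opposite ways, and Cpne4 sided with Cpne9. Cpne8 stood at 81.59, 151.0, 193.0 and 176.8 CPM in CA1-like nuclei, against 19.01, 6.34, 11.85 and 5.587 CPM in CA3-like nuclei of the same units. Its lowest CA1 unit lay above its highest CA3 unit, and the ratio of means was 14.075. Cpne9 stood at 9.066, 12.08, 0 and 10.71 CPM in CA1-like nuclei, against 253.5, 317.0, 231.1 and 150.8 CPM in CA3-like nuclei, a CA3 mean 29.897 times the CA1 mean. Cpne4 stood at 18.13, 6.04, 24.12 and 10.71 CPM in CA1-like nuclei, against 190.1, 107.8, 160.0 and 217.9 CPM in CA3-like nuclei, a CA3 mean 11.451 times the CA1 mean. Neither gene overlapped between the fields. CA3 pyramidal cells receive the mossy fibres of granule cells and project in turn to CA1, so the 2 fields are neighbours in a circuit. The promoter stretches of these 3 genes are shown because they carry this CA1 and CA3 split. They are the bases before the RefSeq start site that lie outside annotated exons, in build GRCm38.p6 (chr15:90679433-90679638, minus strand, for Cpne8, chr6:113282057-113282306, plus strand, for Cpne9 and chr9:104587808-104588057, plus strand, for a second annotated start of Cpne4), and capitals mark the GC box GGGCGG or its complement CCGCCC.
Cpne8: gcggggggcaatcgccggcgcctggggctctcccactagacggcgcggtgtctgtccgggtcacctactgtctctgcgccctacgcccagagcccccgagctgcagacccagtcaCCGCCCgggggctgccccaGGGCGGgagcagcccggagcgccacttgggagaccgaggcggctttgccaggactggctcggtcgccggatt
Cpne9: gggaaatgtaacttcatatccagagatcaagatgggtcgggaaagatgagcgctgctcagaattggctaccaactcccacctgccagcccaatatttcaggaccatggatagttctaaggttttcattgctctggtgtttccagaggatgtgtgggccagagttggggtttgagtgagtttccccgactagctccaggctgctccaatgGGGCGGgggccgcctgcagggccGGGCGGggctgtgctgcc
Cpne4: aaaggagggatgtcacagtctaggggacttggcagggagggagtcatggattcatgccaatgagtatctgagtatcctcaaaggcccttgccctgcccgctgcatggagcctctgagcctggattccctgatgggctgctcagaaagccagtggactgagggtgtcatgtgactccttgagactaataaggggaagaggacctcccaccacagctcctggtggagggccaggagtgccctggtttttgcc

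The stretches of Cpne8 and Cpne9 hold 2 GC boxes each, and the stretch shown for Cpne4 holds none. The 250-base promoter of the other Cpne4 start (chr9:104569405-104569654, plus strand), which lies mostly within an annotated exon and is not shown, holds 1, at 97 bases before the start, and is 59.6% GC with 13 CpG. A GC box on either strand was found in 32.742% of 32851 RefSeq promoters of 250 bases. The other motifs searched on both strands were TATAAA, found in 12.368% of those promoters, TGACGTCA in 1.546% and CAGCTG in 13.001%, and none of these was found in the 250-base promoters of the members. Of the 7 members, 5 matched an entry in the promoter table, and Cpne6 and Cpne7 did not. Base composition differed between the 3 genes, as the 250-base promoter of Cpne8 was 74.4% GC with 28 CpG and that of Cpne9 56.4% GC with 7 CpG, beside a median of 52.4% GC and 6 CpG over all promoters. A match of letters is a description and shows no binding.

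Shares of nuclei were taken at a matched depth. After thinning to 500 UMIs, 6.31% of CA1-like nuclei had a Cpne8 UMI (95% Wilson interval 4.12 to 9.54%). The share was 3.26% in hippocampal endothelial-like nuclei (1.503 to 6.93%), and these intervals overlapped. In 26 choroid plexus-like nuclei of the hippocampus it was 11.5% (4.00 to 29.0%), above the CA1 share, and in ependymal-like nuclei 4.08%. In CPM, Cpne8 stood at 157 in CA1-like nuclei as a subcluster (95% Poisson interval 127 to 191) and at 65.7 in hippocampal endothelial-like nuclei (45.8 to 91.4). A Cpne9 UMI was found in 21 of 210 thinned CA3-like nuclei, against 0 of 184 hippocampal endothelial-like nuclei, and a Cpne4 UMI in 4.76% of CA3-like nuclei, against 0.544% of the same endothelial-like nuclei. For Cpne9 the share was 7.32% in 41 meningeal fibroblast-like and 4.88% in 82 microglia-like nuclei of the hippocampus. It was at most 0.866% in the other non-neuronal types there. For Cpne4 the highest non-neuronal share there was 2.44%, in the meningeal fibroblast-like nuclei.

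Cpne9 had its highest mean in layer 2-4-like nuclei of the cortex, and Cpne5 its highest means in Sst interneuron-like and layer 2-4-like nuclei of the cortex. Cpne9 stood at 431.6, 239.1, 244.2 and 249.4 CPM in layer 2-4-like nuclei of cortical units 0 to 3. Unit 0 was above the other units, which lay within 239.1 to 249.4 CPM. Layer 2-4 and CA3 overlapped in Cpne9 and were the highest groups, while layer 5-like nuclei averaged 33.1 ± 37.6 CPM and layer 6-like nuclei 51.7 ± 31.7 CPM (SD, n = 4 cortical units). Within the layer 2-4-like nuclei the level differed between subclusters, at 548 CPM in the highest, of 165 nuclei (95% Poisson interval 475 to 628), and 269 CPM in the lowest, of 629 nuclei (232 to 311). Cpne6 had the opposite order in those subclusters, at 135 CPM where Cpne9 was highest (100.1 to 178) and 409 CPM where Cpne9 was lowest (363 to 459). After thinning, 14.2% of cortical layer 2-4-like nuclei had a Cpne9 UMI (95% Wilson interval 12.4 to 16.1%), against 0.524% of cortical endothelial-like nuclei. Other non-neuronal nuclei of the cortex were higher than endothelial-like nuclei. The share was 8.33% in microglia-like (5.03 to 13.5%), 6.67% in oligodendrocyte precursor-like (3.09 to 13.8%), 3.06% in meningeal fibroblast-like and 1.31% in astrocyte-like nuclei.

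Cpne5 stood at 153.0, 132.6, 124.0 and 95.74 CPM in layer 2-4-like nuclei of the cortex and at 241.2, 130.6, 156.3 and 51.3 CPM in Sst interneuron-like nuclei of the cortex. These groups overlapped, and the layer 2-4 range lay wholly above that of the third group in order, layer 6, at 68.04, 25.16, 10.61 and 74.8 CPM. Without cortical unit 0 the highest mean was that of layer 2-4, at 117.4 CPM, and no longer that of Sst. Granule-like nuclei were the lowest, at 0, 6.258, 13.49 and 5.016 CPM. The granule, CA1 and CA3 means were 6.19 ± 5.57, 20.3 ± 13.8 and 26.1 ± 11.2 CPM (SD, n = 4 hippocampal units each), so each hippocampal principal type was below layer 2-4 in every unit. After thinning, 5.72% of cortical layer 2-4-like nuclei had a Cpne5 UMI (Wilson interval 4.61 to 7.07%), against 1.57% of cortical endothelial-like nuclei. The share was higher in meningeal fibroblast-like nuclei of the cortex, at 8.16% (4.19 to 15.29%). It was 4.76% in microglia-like (2.43 to 9.11%), 3.33% in oligodendrocyte precursor-like and 1.31% in astrocyte-like nuclei of the cortex. The layer 2-4 share therefore did not stand clear of all non-neuronal nuclei.

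Cpne4 differed between subclusters of layer 5-like nuclei. It stood at 158 CPM in 1 of them, of 65 hippocampal and 69 cortical nuclei (95% Poisson interval 108 to 225), at 15.4 CPM in another, of 31 hippocampal and 306 cortical nuclei (7.66 to 27.5), and at 33.6 CPM in the last, of 31 hippocampal nuclei (6.93 to 98.3). By region, layer 5-like nuclei stood at 54.98, 61.95, 59.28 and 135.9 CPM in hippocampal units, against 21.77, 54.95, 18.22 and 34.29 CPM in cortical units. The lowest hippocampal unit lay just above the highest cortical unit. Cpne6 did not show that split, at 245 CPM in the first of these subclusters (181 to 325) and 243 CPM in the second (208 to 282). Cpne4 in granule-like nuclei stood at 93.31, 68.84, 47.21 and 57.69 CPM, below CA3-like nuclei in every unit.

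Cpne2 was low in excitatory nuclei and higher in some interneurons and in some non-neuronal nuclei. No Cpne2 UMI was found in 322 CA1-like nuclei of the hippocampus, which allows up to 4.77 CPM. Granule-like nuclei averaged 0.631 ± 1.26 CPM and CA3-like nuclei 1.48 ± 2.96 CPM (SD, n = 4 units each). Adarb2 and Vip interneuron-like nuclei, which were too few per unit for a spread and were pooled, stood at 114 CPM in hippocampus (95% Poisson interval 41.9 to 248) and 84.8 CPM in cortex (31.1 to 185). Astrocyte-like nuclei stood at 93.4 CPM in hippocampus (71.6 to 120) and 76.4 CPM in cortex (48.4 to 115), against 33.8 and 13.8 CPM in endothelial-like nuclei of the same regions. Ependymal-like nuclei, whose cells line the ventricles, stood at 231 CPM (127 to 388), and choroid plexus-like nuclei, whose cells secrete cerebrospinal fluid, at 434 CPM (286 to 631). All 26 choroid plexus-like nuclei came from hippocampal unit 0, so that level comes from 1 unit.

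**Figure D4:**
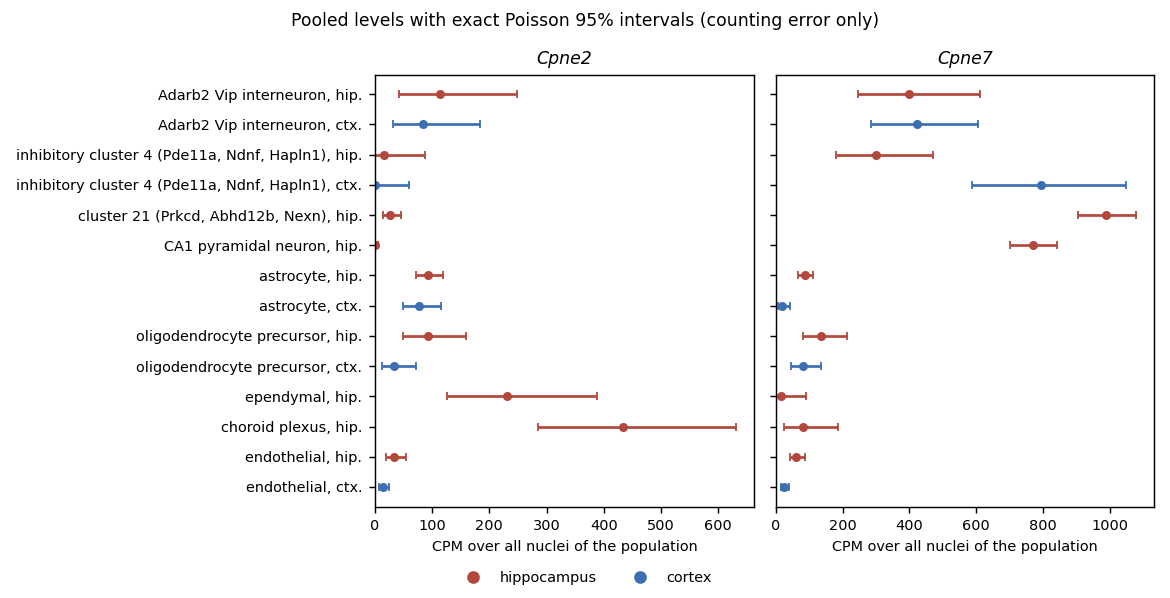
Levels of Cpne2 and Cpne7 pooled over all nuclei of a population, in CPM with exact Poisson 95% intervals, hippocampus in red and cortex in blue. Cpne2 reaches 434 CPM in choroid plexus-like nuclei, and Cpne7 reaches 989 CPM in the unnamed cluster led by Prkcd.

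Cpne7 was also high in some interneurons and in an unnamed cluster. Pooled Adarb2 and Vip interneuron-like nuclei stood at 399 CPM of Cpne7 in hippocampus (95% Poisson interval 247 to 611) and 424 CPM in cortex (286 to 605). These intervals lay below that of the CA1-like subcluster, at 765.5 CPM (698.8 to 836.8), and overlapped that of the CA3-like subcluster, at 483.3 CPM (431.9 to 539.2). An unnamed inhibitory cluster led by Pde11a, Ndnf and Hapln1 stood at 301 CPM in 35 hippocampal nuclei (181 to 470) and 792 CPM in 48 cortical nuclei (586 to 1047). Sst and Pvalb interneuron-like nuclei were far lower, and Pvalb nuclei of the cortex stood at 10.39, 14.62, 0 and 0 CPM. The unnamed cluster led by Prkcd, a gene known from thalamic neurons, stood at 989 CPM of Cpne7 (905 to 1079) and 369 CPM of Cpne9 (318 to 425). All its 181 nuclei came from hippocampal libraries, 136 of them from unit 0.

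Outside the 7 members, Cpne3 was not called between the regions. Its log2 fold change, hippocampus minus cortex, was -0.07 ± 0.121 over all nuclei and -0.11 ± 0.167 in excitatory neuron-like nuclei (SE), with adjusted p of 0.755 and 0.744 (edgeR, quasi-likelihood, adjusted by Benjamini-Hochberg). Among the copines above 1 UMI, Cpne3 varied least over types, with its highest group, cortical Sst interneuron-like nuclei, at 2.4 times the median of the others. In endothelial-like nuclei it stood at 184 CPM in hippocampus (95% Poisson interval 149 to 224) and 156 CPM in cortex (130 to 186), above its mean in every named neuron type.

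The members did not share 1 pattern over the 9 named types. As a description over types that share libraries and depth, the most alike were Cpne5 and Cpne9, with a Pearson r of 0.5626 between their log2(CPM + 1) values, and Cpne6 and Cpne7, with 0.5591, and the least alike were Cpne2 and Cpne8, with -0.6906. Among 7913 genes compared, those most like Cpne6 were AU022252 at 0.9752, Sipa1l3 at 0.9605 and Rnf182 at 0.9252. Sipa1l3 stood at 148.8 CPM in granule-like, 146.4 CPM in CA1-like and 141.7 CPM in CA3-like nuclei and at 17.58 to 42.94 CPM in the other types. Those most like Cpne7 were Rere at 0.8843, Cachd1 at 0.8762 and Rnf167 at 0.8674. Cachd1, which encodes a protein related to calcium channel subunits, stood at 66.84 CPM in CA1-like and 202.0 CPM in CA3-like nuclei and at 1.758 to 24.32 CPM elsewhere. The closest gene was Lig1 for Cpne2 at 0.969, Cd2bp2 for Cpne4 at 0.9649, Gpr180 for Cpne5 at 0.9568, Phc1 for Cpne8 at 0.9622 and Sestd1 for Cpne9 at 0.8614. Some of these genes spanned a narrow range of levels, as Cd2bp2 ranged over types between 24.32 and 58.8 CPM, while Cpne4 ranged from 14.8 to 168.9 CPM over its groups.

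Other genes for proteins with C2 domains were compared between the regions in the same fits. Their list was chosen with earlier results of these data known, and the genes named are those with the smallest adjusted p. Their p-values and calls are therefore a description and no support for a difference. Of 35 genes for other C2-domain proteins, 31 were tested in excitatory neuron-like nuclei. Of these, 5 were higher and 7 lower in hippocampus, beside 8.8% of all genes tested higher and 7.51% lower. The median log2 fold change of the 31 was -0.0038, beside -0.0057 over all genes tested. Doc2b, a calcium sensor of spontaneous transmitter release, rose by 3.02 ± 0.372 on the log2 scale (SE, adjusted p = 9.05e-05, edgeR's quasi-likelihood test), and its relative Doc2a fell by 1.70 ± 0.252 (adjusted p = 0.000395). Among synaptotagmins, Syt7 had a log2 fold change of 0.56 ± 0.114 (adjusted p = 0.00379) and Syt6 of -1.13 ± 0.237 (adjusted p = 0.00471) in the same edgeR test. All 4 genes had no overlap between hippocampal and cortical units.

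Of 19 genes for the spine signalling in which Copine-6 is known to act, all 19 were tested in the excitatory class, and 4 were higher and 3 lower in hippocampus, beside the same shares of all genes, with a median log2 fold change of 0.06. In edgeR's quasi-likelihood test, Camk2b, a subunit of the calcium and calmodulin-dependent kinase of spines, had a log2 fold change of 0.91 ± 0.0906 (SE, adjusted p = 1.52e-05), and Tiam1, an activator of Rac, one of 1.22 ± 0.143 (adjusted p = 5.58e-05). Bdnf, the ligand of TrkB, had a log2 fold change of 1.35 ± 0.185 (adjusted p = 0.000227), and Pak1, a kinase downstream of Rac, one of -0.74 ± 0.139 (adjusted p = 0.00221) in the same edgeR test. The spine list and its named genes were chosen in the same way, so these p-values and calls are also no support for a difference. Over all nuclei, 4 C2-domain genes were higher and 7 lower of 33 tested, and 3 spine genes were higher and 4 lower of 19 tested, beside 9.19% of all genes higher and 8.53% lower. In the inhibitory class edgeR called 0 of 22 C2-domain genes and 0 of 15 spine genes, as did DESeq2, while 4 C2-domain genes and 1 spine gene had an unadjusted p under 0.05 in edgeR. With title numbers 1 to 3 alone, 9 C2-domain genes were higher and 10 lower in the excitatory class, and 7 spine genes higher and 4 lower, with 3431 genes called in all against 1764. At Leiden resolution 4.0, 3 C2-domain genes were higher and 2 lower, and 4 spine genes higher and 1 lower, with 869 genes called in all.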

How the data were processed

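The authors deposited 1 table of UMI counts per gene and nucleus, and those counts, unnormalized whole numbers, were the values used. Per the submitters' processing notes, reads were handled with STAR 2.4.0a24 and Seurat on build mm10. The sources used here do not say whether counting used strand or intronic reads. The table has 13313 columns of nuclei, of which 1689, with the prefix mHP3, match no labelled sample and were not used. By column names alone, they hold 1165 of the 1167 barcodes of library HP3 (hippocampal unit 3). Members and gene lists were chosen with earlier results of these data known.

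Clusters were made at Leiden resolution 2.0 (leidenalg 0.10.2, scanpy 1.11.5) on 2000 variable genes and 40 principal components, without the copine genes. They were named where the marker score reached 0.45, a threshold set after the table was read. Doublet calls (1456 nuclei, 12.53%) were kept in the values reported, and removed as an alternative. Calls took the nuclei most like simulated pairs of nuclei, by a preset share of each library, so their number is not a measured rate. UMIs were summed per unit, with at least 20 nuclei. Regions were compared on sums fitted over all genes with the quasi-likelihood test of edgeR 4.0.16 in R 4.3.3, after TMM scaling and the filterByExpr filter, and p-values were adjusted by Benjamini-Hochberg, and DESeq2 1.42.0 was an alternative. Scripts were tested on simulated data. P-values set the difference between regions against the spread between units, which the fit estimates in part over all genes. Intervals are exact Poisson or Wilson at 95% and cover counting error only. The named genes were, by rule, all copines, the 3 genes most like each member among those of at least 20 CPM, and the 4 genes of each list with the smallest adjusted p in the excitatory class. Alternatives were normalization, test, filter, replicate block, units left out, title numbers 1 to 3, depth, doublets and clustering, and, added after the data were seen, the inhibitory class without its unnamed Itpka cluster.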

Additional observations from a re-analysis of the deposited data

Results flagged for a closer look

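Among 84 groups of 4 units with at least 20 UMIs of the gene, 12 held a unit whose gap to the others passed the critical value of Dixon's test at 95%. Chance flags about 1 in 20 separate groups. The 84 groups share nuclei, since all nuclei hold the excitatory class and that class holds its types. The 12 are therefore not independent, and their number cannot be set against that rate. Unit 0 was the unit concerned in 9 of them. Cpne9 over all nuclei stood at 184.1 CPM in hippocampal unit 0 (others 59.59 to 78.47) and 247.1 CPM in cortical unit 0 (others 140.6 to 152.8). In excitatory neuron-like nuclei, Cpne9 stood at 231.8 CPM in hippocampal unit 0 (others 42.46 to 72.09) and 316.3 CPM in cortical unit 0 (others 155.4 to 181.0), and in cortical layer 2-4-like nuclei at 431.6 CPM in unit 0 (others 239.1 to 249.4). Cpne5 in excitatory neuron-like nuclei stood at 56.48 CPM in hippocampal unit 0 (others 13.11 to 20.48) and 124.0 CPM in cortical unit 0 (others 97.28 to 100.7). Cpne6 stood at 1427 CPM in granule-like nuclei of hippocampal unit 0 (others 832.7 to 910.5) and 2256 CPM in its CA3-like nuclei (others 1145 to 1262).

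The other 3 were in layer 5-like nuclei, of which a hippocampal unit held 26 to 41. Cpne3 stood at 197.6 CPM in hippocampal unit 2 (others 43.99 to 67.93), Cpne4 at 135.9 CPM in hippocampal unit 3 (others 54.98 to 61.95) and Cpne9 at 89.16 CPM in cortical unit 3 (others 8.71 to 18.22). Cpne6 was also singled out because its ratio of hippocampus to cortex was 3.389 in excitatory and 0.695 in inhibitory neuron-like nuclei, with every unit going the opposite way, a difference that was not tested.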

How the results depend on the processing

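Of the folds of members and Cpne3, 325 kept direction and side of the threshold across the alternatives, 11 passed it, 1 no longer did and 19 changed sign. Between 3 and 5 members were called over all nuclei, against 4, and 3 or 4 in the excitatory class, against 3. Cpne9 was the added gene in both, called without a filter, with the replicate block, with title numbers 1 to 3 and without hippocampal unit 0, and Cpne2 lost its call without hippocampal unit 3 (adjusted p = 0.0508 in edgeR) and kept it in the other 15 alternatives. In the inhibitory class 1 member was called, against 0, with title numbers 1 to 3, at Leiden resolution 1.0 and without hippocampal unit 0, a leave-one-out range of 0 to 1. The highest type stayed the same for 2 of 7 members at Leiden resolution 1.0, where CA1 and CA3 nuclei fell in 1 unnamed cluster, and for 6 to 7 with a unit left out. Log2 folds changed sign for Cpne4 over all nuclei (-0.12 with title numbers 1 to 3, and a range of -0.17 to 0.18 with a unit left out), Cpne8 over all nuclei (-0.033 to 0.112 with a unit left out) and Cpne3 (-0.13 to 0.0035 over all nuclei with a unit left out, and 0.018 in the excitatory class at Leiden resolution 4.0). In the inhibitory class Cpne7 turned to -0.035 with no filter, -0.018 with libraries 0a and 0b apart, -0.081 without doublets, -0.47 and -0.025 at Leiden resolutions 1.0 and 4.0, -0.14 with copines kept for clustering and -0.079 without the unnamed cluster, and ranged from -0.11 to 0.33 with a unit left out. Cpne9 turned to 0.10 there at Leiden resolution 1.0. The cause was not tested.

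With title number as a replicate block, 5 members were called over all nuclei, 4 in the excitatory class and 0 in the inhibitory class, and the genes called were 3086 (against 2278), 2558 (against 1764) and 47 (against 17). Same-numbered units correlated at 0.431, 0.0984, 0.0169 and 0.0308 in their deviations over all nuclei. Only number 0 correlated best with its own number there. In the excitatory class number 0 and hippocampal unit 2 (0.0949) did, and in the inhibitory class number 0 and hippocampal unit 1 (0.0399). The labels tie no number to a mouse, and the numbers were not taken as pairs. Genes called were 4128 over all nuclei and 3431 in the excitatory class with title numbers 1 to 3, 869 in the excitatory class at Leiden resolution 4.0, and 2 to 295 in the inhibitory class. Depth limits Cpne2 and the interneuron types, where a few UMIs per unit set the level.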
